A study of Solanum lycopersicum with 39 samples.

Results

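The transcriptome of leaves of the tomato cultivar M82, taken 1 day after re-watering at the end of a drought treatment, was compared with that of leaves at day 0 of the same treatment, to see which transcripts were not at their starting level 1 day after water was given back. All 3 re-watered libraries and all 3 day 0 libraries were used, 6 of the 39 libraries of the series, and every gene with at least 1 FPKM in at least 3 of the 21 drought libraries was tested, 19963 of 34075 genes listed. FPKM gives the fragments that map to a transcript relative to its length and to the number of fragments in the library. A gene low in all other groups can reach this level through the group in which it is high, and 517 of the genes tested did so only with the libraries of the group, re-watered or day 0, in which they were higher. Of these, 72 were called higher and 77 lower by the rule given below.

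By the labels the plants were 38 days old when the treatments began, and had been grown in pots under 16 h of light and 8 h of dark at 25 °C and 70% humidity. Re-watered plants had gone without water, had then been watered, and had grown for 1 more day under these conditions. Day 0 was counted from the moment at which the soil was at about 80% of its water capacity, so the soil of day 0 pots was below full capacity. The submitters' protocol names day 0 as the control of the drought series. The soil water of re-watered pots is not given, and no plants watered throughout were sampled beside them, so that re-watering, plant age and the water state of the soil at day 0 cannot be told apart. Day 5 leaves (the last day without water) and, from the heat series, leaves 1 day after 24 h at 42 °C (heat recovery) and before heat (heat 0 h) were used for reference, with 3 libraries each. For the heat plants the paper gives a younger age than the labels do. The hour at which leaves were taken is not given. The labels do not state that drought libraries came from separate plants, so p-values measure the spread between these libraries, and in bulk leaves fewer cells of a type and less RNA per cell cannot be told apart.

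When soil dries, leaves build up abscisic acid, a hormone that closes stomata and switches on protective genes, while photosynthesis and growth are held back. After re-watering, abscisic acid is broken down, stomata open again, and growth and chloroplast genes are expressed again. Names and products were available here only for 206 genes that the paper lists, 111 of which were placed in 12 lists by function. The paper chose most of them on lines with more or less of the zinc finger protein SlBBX31, and they do not sample each pathway evenly.

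The 6 libraries were of like quality by the measures at hand. Their FPKM summed to between 742353 and 790266 in re-watered leaves and between 761241 and 773555 at day 0, and their depth relative to the median of the 6 was 0.953 to 1.02 in re-watered leaves and 0.993 to 1.22 at day 0. The absolute depth is unknown. On the log2 scale the correlation across genes was 0.964 to 0.981 among re-watered libraries, 0.974 to 0.979 among day 0 libraries and 0.897 to 0.921 between them. The lowest value among re-watered libraries was between replicates 1 and 2. Of the 23 light-harvesting antenna genes, 18 to 21 were among the 500 highest genes of each of the 6 libraries, a level that fits green leaves. Markers of other leaf cell types could not be looked up, because the gene IDs are not paired with names.

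A gene was called changed where its adjusted p was at most 0.05 and its change on the scale of log2(FPKM + 1) was at least 1 in either direction. This scale understates the change of low genes. By this rule 1048 genes were higher in re-watered leaves (5.25% of those tested) and 1280 were lower (6.41%). The median fold change of all genes was 0.05 on the log2 scale. Most of the changes were moderate. The median change was 1.33 among the higher and -1.43 among the lower genes, and a log2 change of at least 2 in size was seen in 186 of the higher and 263 of the lower genes. At day 0 the median level was 7.62 FPKM for the genes that were higher, 15.2 FPKM for those that were lower and 10.1 FPKM for all genes tested. With libraries scaled by median ratios, 945 genes were higher (4.73%) and 1434 lower (7.18%), and 940 and 1280 of the genes were called in the same direction in both forms of the values. Without any minimum fold change, 7084 genes passed the adjusted p.

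Against day 5, the same leaves were higher in 3473 genes (17.4%) and lower in 2514 (12.6%), more than 2 times as many in all as against day 0. Re-watered libraries had a correlation of 0.687 to 0.787 with day 5 libraries, below their 0.897 to 0.921 with day 0. Both comparisons use the same re-watered libraries.

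Among the 190 annotated genes that were tested, 22 were higher and 32 were lower than at day 0, against 5.25% and 6.41% of all genes tested. These 2 shares are the background for the count of every list below. In 42 annotated genes all re-watered libraries were above all day 0 libraries and in 72 all were below, against 28.2% and 21.5% of all genes tested. The other 16 annotated genes did not reach the minimum level. An exact permutation test of 3 libraries against 3 cannot give a p below 0.1, so calls rest on the spread shared across genes. The plot by list shows how these genes were distributed.

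**Figure D1:**
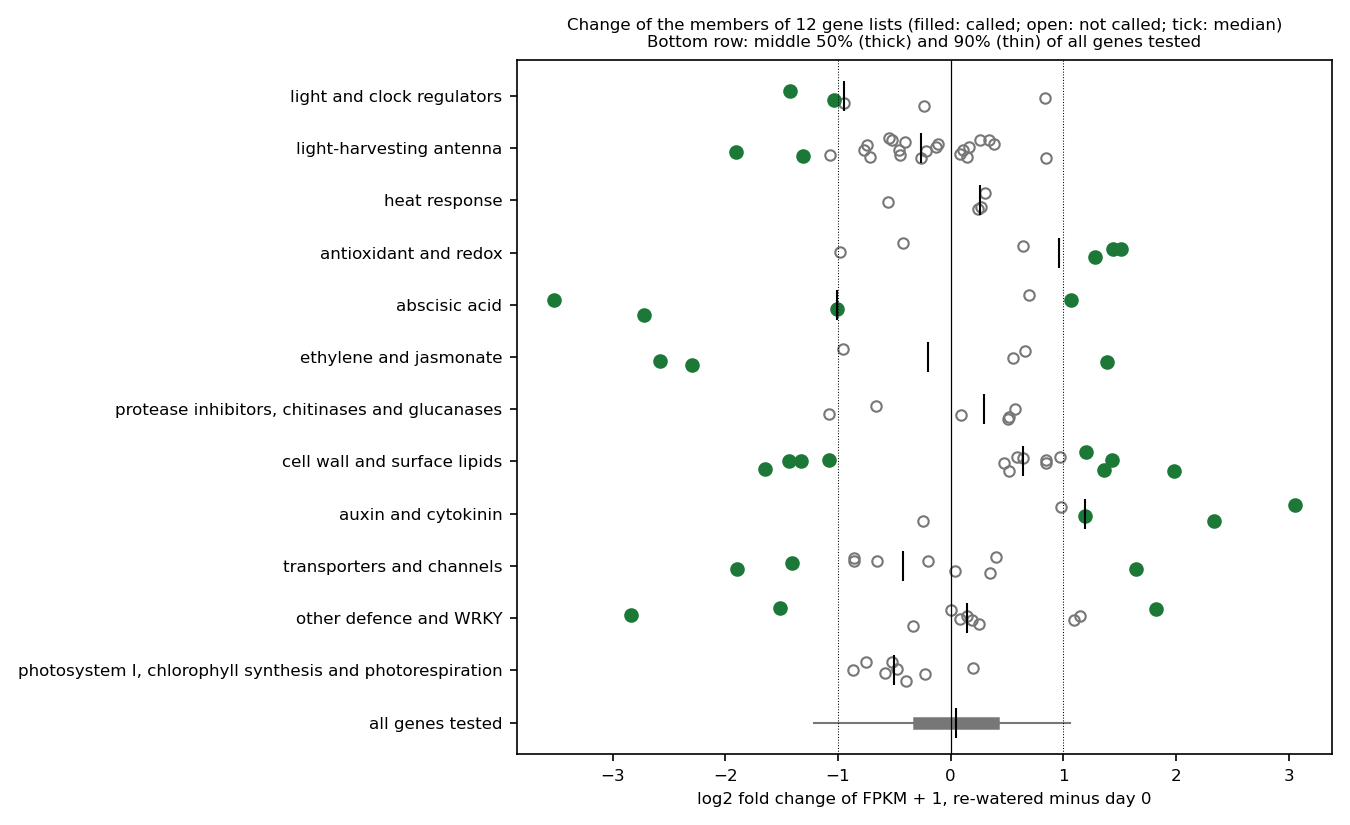
Change of each tested member of the 12 gene lists in re-watered leaves relative to day 0, as log2 fold change of FPKM + 1 on the horizontal axis. Filled points are genes called changed, open points are genes not called, and ticks are medians; dotted lines mark a change of 1 in either direction. The bottom row gives the spread of all 19963 genes tested. All 3 called genes of the auxin and cytokinin list and all 3 of the antioxidant list lie to the right, and none of the 8 photosystem I, chlorophyll synthesis and photorespiration genes was called. The called auxin and cytokinin genes did not reach the minimum level in the 15 libraries of the other groups, so their position is a description.

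Abscisic acid genes were called lower than at day 0 in 3 of 5 cases and higher in 1, with a median log2 change of -1.004 against 0.05 for all genes. *NCED3* (*Solyc07g056570.1*), the 9-cis-epoxycarotenoid dioxygenase at the rate-limiting step of abscisic acid synthesis, had 19.4, 13.1 and 10.4 FPKM in re-watered leaves, against 98.3, 102 and 90.8 FPKM at day 0 (log2 fold change -2.72 ± 0.23 SE, adjusted p = 1.24e-07). All re-watered libraries lay far below all day 0 libraries, and the mean at day 5 was 258 FPKM. *ABF3* (*Solyc01g108080.4*), a bZIP factor that acts downstream of abscisic acid, had 0.656, 0.352 and 0.491 FPKM in re-watered leaves, against 17.1, 20.1 and 12.2 FPKM at day 0 (log2 fold change -3.52 ± 0.24 SE, adjusted p = 1.66e-08). Its mean stayed between 6.89 and 12.6 FPKM from day 1 to day 5, so the re-watered level was the lowest of the 7 groups, below day 5 as well (log2 fold change -3.14, adjusted p = 7.76e-09). The kinase gene *SAPK2* (*Solyc11g010130.3*), of the SnRK2 family that relays the hormone signal, had 3.77, 3.04 and 2.196 FPKM in re-watered leaves, against 5.68, 8.802 and 6.58 FPKM at day 0 (log2 fold change -1.004 ± 0.31 SE, adjusted p = 0.0178). The libraries did not overlap, but the change was at the threshold, and it was -0.85 (adjusted p = 0.0785) without re-watered replicate 3 and -0.85 (adjusted p = 0.0783) without the second day 0 library.

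The gene for xanthoxin dehydrogenase (*Solyc04g071960.3*), which acts after NCED in the same synthesis, ran the other way, with 28.00, 42.2 and 32.99 FPKM in re-watered leaves, against 12.99, 17.1 and 17.4 FPKM at day 0 (log2 fold change 1.06 ± 0.24 SE, adjusted p = 0.00201). At day 5 it was at 0.775 FPKM. Its change was 0.91 without re-watered replicate 2 and 0.94 without the first day 0 library, just under the minimum of 1. Zeaxanthin epoxidase, an early enzyme of the route, had a log2 fold change of 0.70 and was not called. Its re-watered libraries nonetheless lay wholly above day 0.

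Ethylene synthesis genes were called lower in 2 cases. *ACS6* (*Solyc08g081550.4*), for the synthase that makes the ethylene precursor, had 8.197, 5.19 and 6.37 FPKM in re-watered leaves, against 52.3, 26.2 and 33.3 FPKM at day 0 (log2 fold change -2.30 ± 0.31 SE, adjusted p = 2.32e-05). At day 5 its mean was 33.99 FPKM, close to that of day 0. *ACO1* (*Solyc07g049530.3*), for the oxidase that turns the precursor into ethylene, had 66.6, 5.45 and 19.4 FPKM in re-watered leaves, against 174, 78.2 and 136 FPKM at day 0 (log2 fold change -2.58 ± 0.57 SE, adjusted p = 0.00192). Re-watered replicate 1 was more than 3 times as high as the other re-watered libraries, yet still below every day 0 library. The call was lost when only these 2 groups were fitted (adjusted p = 0.0551). A second oxidase gene, *ACO4* (*Solyc02g081190.4*), averaged 282 ± 75.4 FPKM in re-watered leaves and 175 ± 10.3 FPKM at day 0 (SD, n = 3 each), a log2 change of 0.66 that was below the minimum. All its re-watered libraries lay above all day 0 libraries.

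Of the jasmonate genes, the gene for the JAR1-like synthetase (*Solyc08g068490.3*) was higher. In Arabidopsis this enzyme joins jasmonate to isoleucine and so makes the active hormone. It had 21.5, 47.1 and 33.99 FPKM in re-watered leaves, against 11.6, 17.7 and 8.03 FPKM at day 0 (log2 fold change 1.39 ± 0.30 SE, adjusted p = 0.00167), and was at 1.75 FPKM at day 5. *LOX1* (*Solyc08g029000.3*), a lipoxygenase, averaged 1.12 ± 0.872 FPKM in re-watered leaves and 3.96 ± 3.85 FPKM at day 0 and was not called (adjusted p = 0.105). Its libraries varied widely within both groups, and it was called lower without the second day 0 library (log2 fold change -1.68). The ethylene response factor gene *ERF5* (*Solyc03g093560.1*), at 104 FPKM at day 5, averaged 16.4 ± 6.803 FPKM in re-watered leaves and 12.00 ± 8.76 FPKM at day 0 (adjusted p = 0.437), and its libraries overlapped. In all, 1 of the 6 ethylene and jasmonate genes was higher and 2 were lower, with a median of -0.20.

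Of the auxin and cytokinin genes, 3 were called higher. The list has 5 members, and only 1 of them, which was not called, reached the minimum level in the 15 libraries of the other groups, so the count of this list rests on genes that entered the test through the 6 libraries compared and is given as a description. *SAUR50* (*Solyc01g110570.3*), of the small auxin up RNA family whose members promote cell expansion, had 29.7, 32.7 and 25.6 FPKM in re-watered leaves, against 4.55, 2.53 and 1.44 FPKM at day 0 (log2 fold change 3.06 ± 0.34 SE, adjusted p = 3.09e-06). Every re-watered library was more than 5 times as high as every day 0 library. The auxin-induced 15A-like gene (*Solyc01g110940.3*), of the same family, had 7.63, 9.94 and 7.22 FPKM in re-watered leaves, against 0.688, 0.9204 and 0.854 FPKM at day 0 (log2 fold change 2.34 ± 0.17 SE, adjusted p = 2.68e-08). It reached 1 FPKM only in the re-watered libraries, so that it could be tested only because it was high there. On each of days 1 to 5 the means of both were below those of day 0, and at day 5 they were 0.5498 and 0.223 FPKM. The zeatin O-glucosyltransferase-like gene (*Solyc10g079350.3*), for an enzyme that stores cytokinin as a glucoside, had 6.801, 9.88 and 16.6 FPKM in re-watered leaves, against 6.83, 2.29 and 3.84 FPKM at day 0 (log2 fold change 1.19 ± 0.30 SE, adjusted p = 0.00471). Here the groups overlapped by a narrow margin. The change was 0.88 without re-watered replicate 3 and 0.89 without the second day 0 library, and the call was lost with a pseudocount of 0.1 and when only these 2 groups were fitted.

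**Figure D2:**
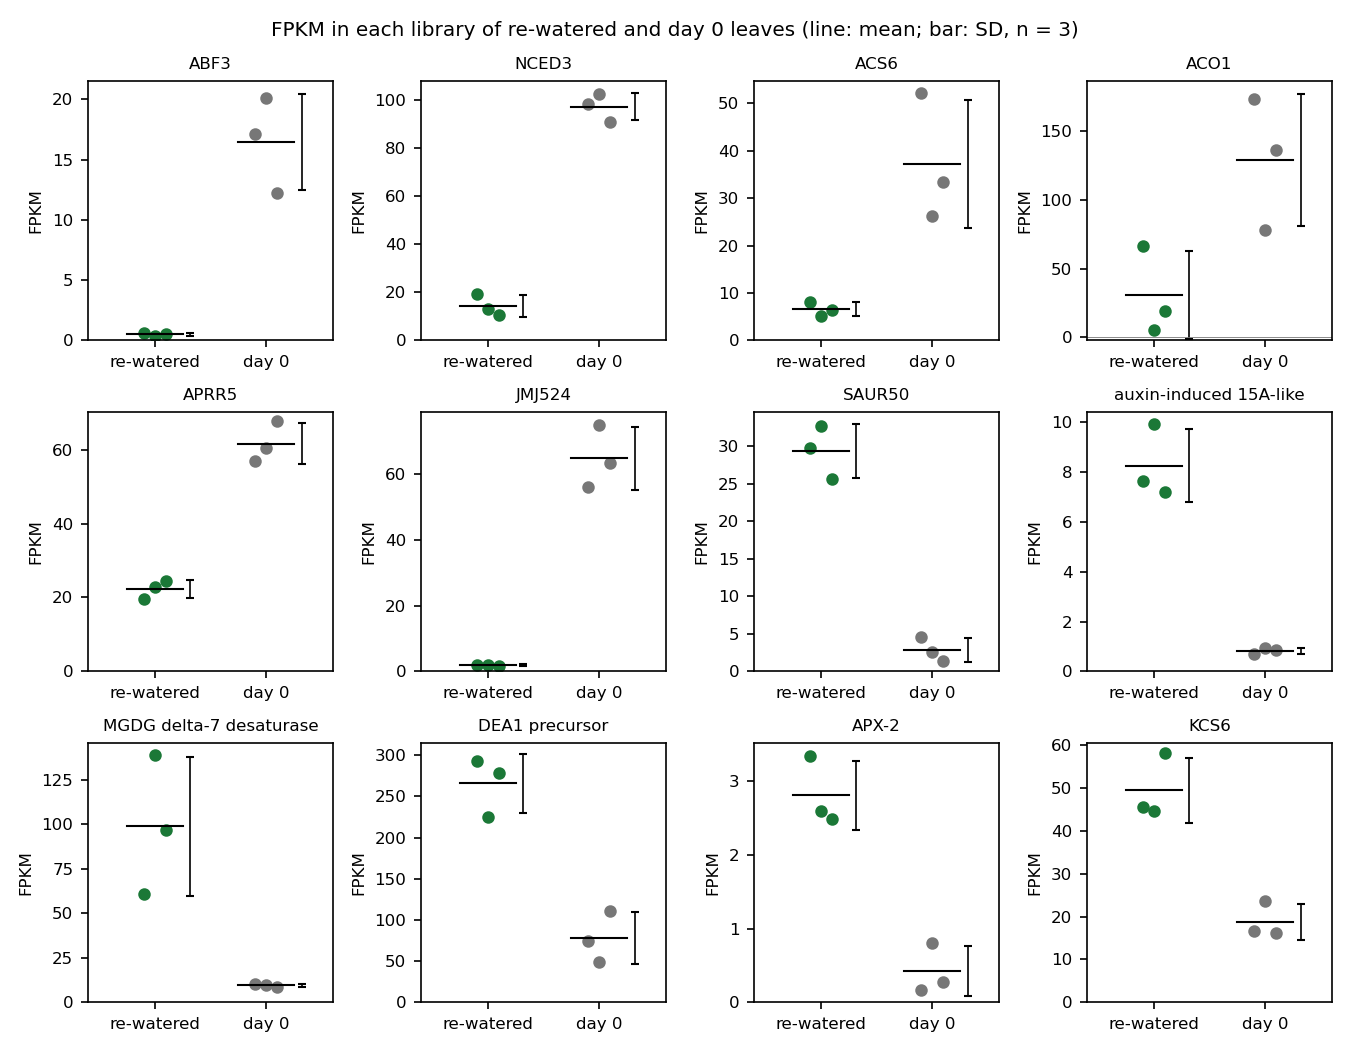
FPKM of 12 called genes in each library, with re-watered leaves on the left and day 0 on the right of each panel; horizontal lines are means and bars are SD (n = 3). In all 12 panels the 3 re-watered libraries lie wholly above or wholly below the 3 day 0 libraries, as for *ABF3* at 0.352 to 0.656 FPKM in re-watered leaves and 12.2 to 20.1 FPKM at day 0.

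Genes of photosynthesis were far above their day 5 level in re-watered leaves, and few of them passed the test against day 0. All 23 antenna genes and all 8 genes of photosystem I, chlorophyll synthesis and photorespiration were called higher than at day 5, with median log2 changes of 5.30 and 4.81. The antenna proteins bind the chlorophyll that gathers light for the photosystems. Summed over the list, antenna genes had 29286, 34060.1 and 33629.7 FPKM in re-watered leaves, against 31565, 38671 and 36473 FPKM at day 0. The mean at day 5 was 2583 FPKM. The sums of the groups overlapped.

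Relative to day 0, 2 of 23 antenna genes were called lower and none higher, and the median change was -0.26. The re-watered libraries lay wholly below day 0 in 11 of the 23 and wholly above in 2, against 21.5% and 28.2% of all genes tested. *LHCb2* (*Solyc12g006140.2*) had 127, 154 and 195 FPKM in re-watered leaves, against 432, 802 and 581 FPKM at day 0 (log2 fold change -1.90 ± 0.68 SE, adjusted p = 0.03696). *LHCb1* (*Solyc02g070990.1*) had 218, 263 and 334 FPKM in re-watered leaves, against 581, 617 and 816 FPKM at day 0 (log2 fold change -1.31 ± 0.48 SE, adjusted p = 0.0406). The groups did not overlap for either gene, but these calls were fragile. For *LHCb2* it was lost in 7 and for *LHCb1* in 8 of 11 alternatives, where adjusted p reached 0.12 for both. The shared fit takes in days 2 and 5, on which antenna genes varied most between libraries, with a median SD of 1.17 and 1.10 on the log2 scale against 0.25 in re-watered leaves and 0.20 at day 0. With only these 2 groups in the fit, 3 antenna genes were called lower.

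The other 21 antenna genes had log2 changes from -1.07 to 0.84. Among copies of *LHCb1*, *Solyc02g071000.1* had 265, 365 and 471 FPKM in re-watered leaves, against 572, 882 and 842 FPKM at day 0, a change of -1.07 that was not called (adjusted p = 0.144). Its neighbour *Solyc02g070940.1* had 4039, 4832 and 4456 FPKM in re-watered leaves, against 2439.9, 2548 and 2417 FPKM at day 0, a change of 0.84 in the opposite direction that was also not called (adjusted p = 0.243). The *LHCb1* genes whose IDs lie close together belong to a family of near-identical copies, and the split of reads between them is uncertain. The major *LHCa3* gene *Solyc03g005760.1*, of the photosystem I antenna, averaged 4562 ± 158 FPKM in re-watered leaves and 4977 ± 197 FPKM at day 0 (SD, n = 3 each).

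None of the 8 genes of photosystem I, chlorophyll synthesis and photorespiration was called against day 0. Of these, 7 had lower mean log2 levels in re-watered leaves, with changes from -0.87 to 0.20 and a median of -0.50, and in 5 the re-watered libraries lay wholly below day 0 (21.5% of all genes tested). Glycolate oxidase (*Solyc10g007600.3*), an enzyme of photorespiration, had the lowest value and averaged 123 ± 29.1 FPKM in re-watered leaves and 223 ± 36.9 FPKM at day 0 (adjusted p = 0.1297). Protochlorophyllide reductase (*Solyc12g013710.2*), which carries out the light-dependent step of chlorophyll synthesis, averaged 160.2 ± 57.1 FPKM in re-watered leaves and 227 ± 71.02 FPKM at day 0. At day 5 it was at 1.12 FPKM. Summed over the list, the level was 7910.1, 8357 and 8704 FPKM in re-watered leaves, against 10124, 12739.7 and 11076 FPKM at day 0, and the groups did not overlap.

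**Figure D3:**
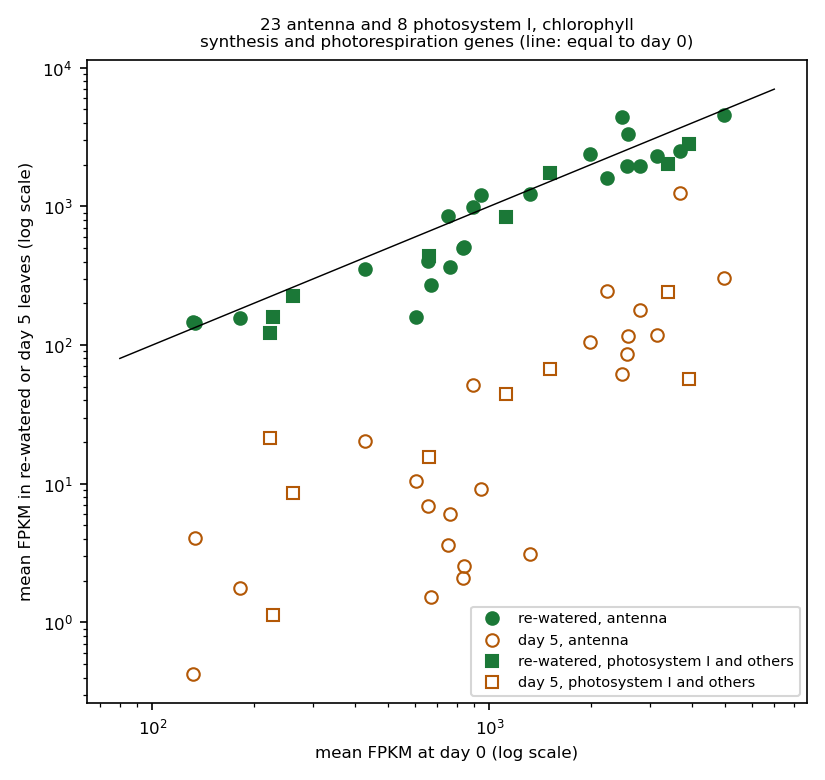
Mean FPKM of 23 antenna genes (circles) and 8 photosystem I, chlorophyll synthesis and photorespiration genes (squares) in re-watered leaves (filled) and at day 5 (open), against the mean at day 0, both axes on a log scale. The line marks equality with day 0. Filled points lie closer to the line than the open points of the same genes, and every open point lies below its filled point. The filled points of *LHCb2* and of *LHCb1* (*Solyc02g070990.1*), both called lower, lie clearly below the line.

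Antioxidant and redox genes were called higher in 3 of 6 tested cases. Peroxidase 47 (*Solyc06g076630.3*), a class III peroxidase, had 20.2, 19.6 and 21.1 FPKM in re-watered leaves, against 7.46, 5.37 and 6.64 FPKM at day 0 (log2 fold change 1.51 ± 0.17 SE, adjusted p = 4.12e-06). The re-watered libraries differed little from each other, and the mean at day 5 was 18.3 FPKM, with no difference called between re-watered leaves and day 5. *APX-2* (*Solyc09g007270.3*), for an ascorbate peroxidase that removes hydrogen peroxide, had 3.35, 2.599 and 2.49 FPKM in re-watered leaves, against 0.173, 0.8105 and 0.282 FPKM at day 0 (log2 fold change 1.44 ± 0.38 SE, adjusted p = 0.00737). The thioredoxin H4-like gene (*Solyc05g006870.3*), for a protein that reduces disulfide bonds, had 12.1, 5.23 and 8.97 FPKM in re-watered leaves, against 2.504, 3.26 and 2.81 FPKM at day 0 (log2 fold change 1.28 ± 0.34 SE, adjusted p = 0.00738). For these last genes the mean at day 5 was higher still, at 30.7 FPKM for *APX-2* and 24.6 FPKM for thioredoxin H4-like, and re-watered leaves were called lower than day 5 in both.

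*SOD2* (*Solyc06g048410.4*), for a superoxide dismutase, had 82.7, 86.98 and 99.5 FPKM in re-watered leaves, against 184, 201 and 149.6 FPKM at day 0. The libraries did not overlap, and its log2 fold change of -0.98 lay just under the minimum in size. With median-ratio scaling it was -1.03 (adjusted p = 0.001303) and was called. It was also called without re-watered replicate 3 (-1.05) and without the third day 0 library (-1.10). *POD* (*Solyc01g105070.3*) averaged 7.49 ± 2.999 FPKM in re-watered leaves and 11.7 ± 7.16 FPKM at day 0 and was not called (adjusted p = 0.4999), except without the second day 0 library (log2 fold change -1.05). Of the 4 heat response genes none was called. *HSP90* (*Solyc08g079170.3*) averaged 53.3 ± 2.74 FPKM in re-watered leaves and 44.7 ± 2.05 FPKM at day 0, *HSP70-1* (*Solyc09g011030.3*) averaged 19.2 ± 0.476 FPKM in re-watered leaves and 15.3 ± 1.79 FPKM at day 0, and the heat shock factor gene *HSF24* (*Solyc02g090820.3*) averaged 22.2 ± 9.86 FPKM in re-watered leaves and 30.9 ± 4.27 FPKM at day 0. For *HSP90* and *HSP70-1* the re-watered libraries lay wholly above day 0, as in 28.2% of all genes tested. *HSP17.6* (*Solyc08g062437.1*), for a small heat shock protein, was below 0.5 FPKM in all 6 libraries and had a day 5 mean of 3.81 FPKM.

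Light and clock regulators were called lower in 2 of 5 cases with deposited values and in 3 with scaled values, and the median log2 change of the list was -0.95. *APRR5* (*Solyc03g081240.3*), a pseudo-response regulator that in Arabidopsis is part of the circadian clock, had 19.7, 22.9 and 24.3 FPKM in re-watered leaves, against 56.8, 60.5 and 67.6 FPKM at day 0 (log2 fold change -1.43 ± 0.12 SE, adjusted p = 9.35e-08). Through day 4 its mean stayed between 51.5 and 74.4 FPKM, and it was 16.2 FPKM at day 5. *PCL1* (*Solyc06g076350.3*), also known in Arabidopsis as a clock gene of the evening, had 6.26, 7.18 and 6.06 FPKM in re-watered leaves, against 13.4, 15.9 and 13.9 FPKM at day 0 (log2 fold change -1.04 ± 0.13 SE, adjusted p = 1.00e-05). Its change was -0.99 without re-watered replicate 3 and -0.97 without the second day 0 library, just under the minimum. The CONSTANS-like 13 gene (*Solyc09g074560.3*), for a B-box zinc finger protein, had 38.8, 28.1 and 31.9 FPKM in re-watered leaves, against 64.6, 63.2 and 63.5 FPKM at day 0 (log2 fold change -0.95 as deposited and -1.003 scaled). It was called with scaled values, and without re-watered replicate 1 (-1.07).

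*SlBBX31* (*Solyc06g063280.1*), the B-box gene studied in the paper, averaged 1.53 ± 0.459 FPKM in re-watered leaves and 0.399 ± 0.137 FPKM at day 0 (SD, n = 3 each). The re-watered libraries lay above the day 0 libraries, but the log2 change of 0.84 (adjusted p = 0.0105) was below the minimum. At these levels the pseudocount holds the change down.

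**Figure D4:**
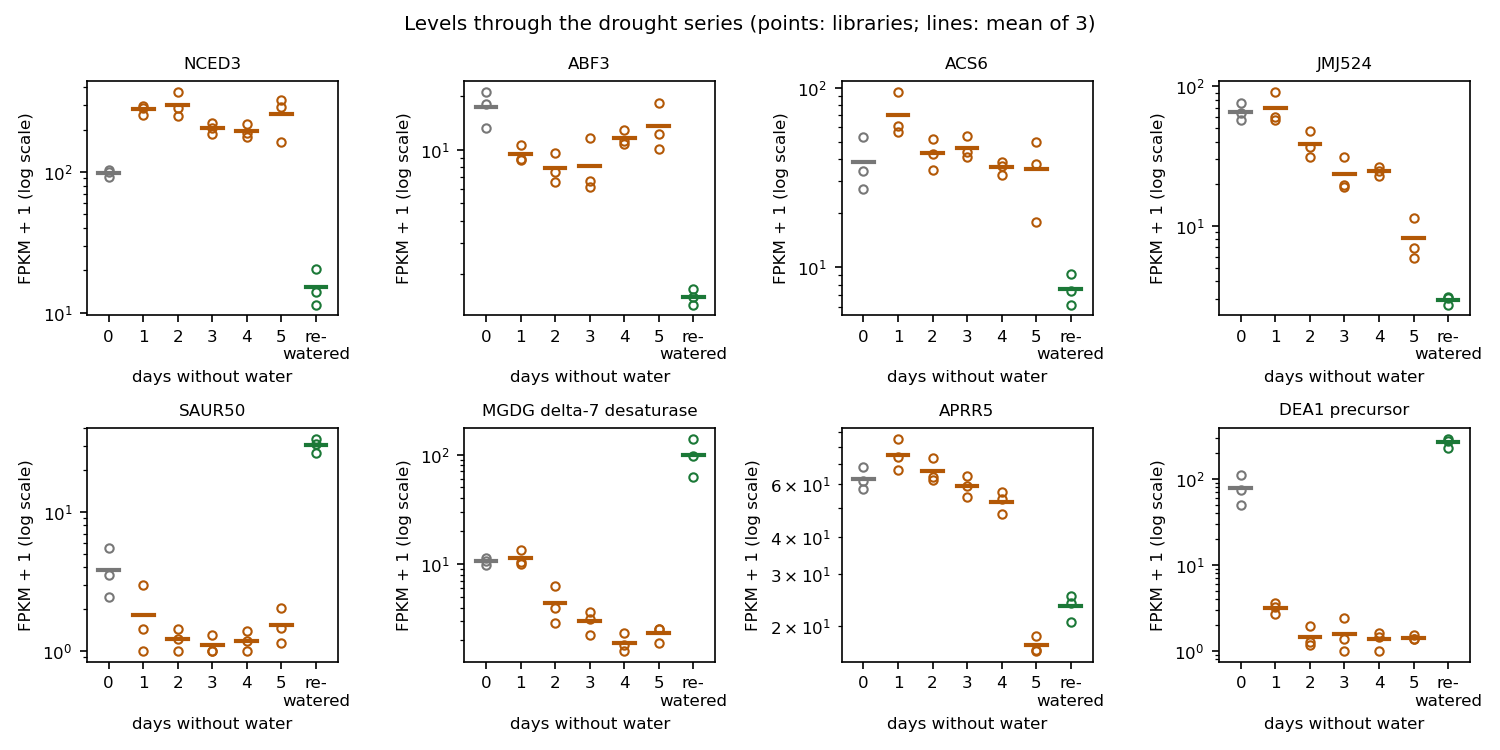
FPKM + 1 on a log scale for 8 genes at 0 to 5 days without water and 1 day after re-watering; points are libraries and lines are means of 3. In re-watered leaves *NCED3*, *ABF3*, *ACS6* and *JMJ524* had the lowest mean of the 7 groups, and *SAUR50*, the delta-7 desaturase gene and the DEA1 precursor gene had the highest.

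Cell wall and surface lipid genes changed in both directions, with 4 higher and 4 lower among 15 tested, and a median log2 change of 0.64. Among the lipid genes of the list was that for 3-ketoacyl-CoA synthase 6 (*Solyc05g009270.4*), which elongates the fatty acids of cuticular wax. It had 45.5, 44.5 and 58.1 FPKM in re-watered leaves, against 16.6, 23.7 and 16.1 FPKM at day 0 (log2 fold change 1.36 ± 0.34 SE, adjusted p = 0.00468). The putative lipid-transfer protein gene *DIR1* (*Solyc01g066910.3*) had 10.8, 10.2 and 11.1 FPKM in re-watered leaves, against 3.66, 1.57 and 1.18 FPKM at day 0 (log2 fold change 1.98 ± 0.41 SE, adjusted p = 0.00111). Its re-watered libraries were nearly equal, and the call was lost with a pseudocount of 0.1 (adjusted p = 0.0815). The *WSD1* acyltransferase gene (*Solyc10g009430.3*), which in Arabidopsis makes wax esters, had 0.6099, 0.142 and 0.253 FPKM in re-watered leaves, against 2.64, 2.93 and 1.52 FPKM at day 0 (log2 fold change -1.32 ± 0.22 SE, adjusted p = 1.33e-04). It reached the minimum level only with the day 0 libraries, in which it was higher. Its mean was below 1 FPKM from day 2 on, and re-watered leaves were not called different from day 5, at 0.0779 FPKM. The GDSL esterase/lipase gene (*Solyc02g071610.3*) had 27.3, 25.8 and 36.1 FPKM in re-watered leaves, against 105, 72.6 and 108 FPKM at day 0 (log2 fold change -1.64 ± 0.40 SE, adjusted p = 0.00376). It was above its day 5 mean of 1.98 FPKM and below day 0, both by the test.

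Pectin genes were split. Pectinesterases remove methyl groups from wall pectin, and their inhibitors hold them back. The gene for pectinesterase 53 (*Solyc12g008530.2*) had 4.61, 6.900 and 4.82 FPKM in re-watered leaves, against 1.64, 1.84 and 0.739 FPKM at day 0 (log2 fold change 1.43 ± 0.24 SE, adjusted p = 1.70e-04). Pectinesterase inhibitor 4 (*Solyc11g019910.1*) had 82.6, 153 and 106 FPKM in re-watered leaves, against 44.3, 55.1 and 43.5 FPKM at day 0 (log2 fold change 1.20 ± 0.35 SE, adjusted p = 0.0118), and 0.97 (adjusted p = 0.0632) without re-watered replicate 2. A further pectinesterase gene (*Solyc02g080200.4*) was called lower, with 4.98, 19.7 and 10.4 FPKM in re-watered leaves, against 16.2, 15.9 and 44.7 FPKM at day 0 (log2 fold change -1.08 ± 0.39 SE, adjusted p = 0.0407). Its libraries overlapped, and the change was -0.61 (adjusted p = 0.239) without the third day 0 library and -0.63 (adjusted p = 0.226) without re-watered replicate 1. Among 11 alternatives, 6 took away this call. The subtilisin-like protease gene *SBT1.9* (*Solyc10g084320.3*) was lower, with 3.33, 4.995 and 6.05 FPKM in re-watered leaves, against 20.6, 8.805 and 16.1 FPKM at day 0 (log2 fold change -1.44 ± 0.30 SE, adjusted p = 0.00135), and did not overlap.

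Among 11 other defence and WRKY genes, 1 was higher and 2 were lower, with a median of 0.15. The arachidonic acid-induced DEA1 precursor gene (*Solyc08g078900.1*) had 293, 226 and 279 FPKM in re-watered leaves, against 74.2, 49.3 and 111 FPKM at day 0 (log2 fold change 1.82 ± 0.31 SE, adjusted p = 1.78e-04). From day 2 to day 5 its mean was below 1 FPKM. The call was lost with a pseudocount of 0.1 (adjusted p = 0.0837). *YLS3* (*Solyc08g007460.3*) had 22.8, 1.93 and 9.61 FPKM in re-watered leaves, against 106, 26.95 and 89.8 FPKM at day 0 (log2 fold change -2.84 ± 0.71 SE, adjusted p = 0.00459). *EIX1* (*Solyc07g008620.1*), for a receptor-like protein of the family that binds fungal xylanase, had 3.77, 1.04 and 3.203 FPKM in re-watered leaves, against 11.4, 6.61 and 9.16 FPKM at day 0 (log2 fold change -1.52 ± 0.38 SE, adjusted p = 0.00503). In both, re-watered replicate 2 was the lowest of the 6 libraries and the second day 0 library was the lowest of its group. Without re-watered replicate 2, 3 genes of this list were called higher.

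None of the 6 tested protease inhibitors, chitinases and glucanases was called, with log2 changes from -1.08 to 0.57. Their sum was 515, 111 and 417 FPKM in re-watered leaves, against 447, 247 and 581 FPKM at day 0, and the spread within each group was wider than the difference. At day 5 the mean of the sum was 6162 FPKM. Re-watered replicate 2 was again the lowest.

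Of 10 transporters and channels tested, 1 was higher and 2 were lower. The amino acid transporter gene *AVT1C* (*Solyc03g063040.4*) had 11.5, 15.3 and 9.83 FPKM in re-watered leaves, against 3.302, 3.38 and 2.78 FPKM at day 0 (log2 fold change 1.65 ± 0.24 SE, adjusted p = 4.31e-05). The hexose transporter gene (*Solyc09g075820.3*) had 26.5, 8.68 and 15.6 FPKM in re-watered leaves, against 78.8, 39.9 and 68.7 FPKM at day 0 (log2 fold change -1.90 ± 0.42 SE, adjusted p = 0.00195). The glutamate receptor 2.8 gene (*Solyc06g063210.3*), for a cation channel of the glutamate receptor-like family, had 6.35, 1.64 and 5.37 FPKM in re-watered leaves, against 16.5, 9.72 and 11.2 FPKM at day 0 (log2 fold change -1.41 ± 0.38 SE, adjusted p = 0.00854). The groups did not overlap in any of these, but without re-watered replicate 2 the change of glutamate receptor 2.8 was -0.95 (adjusted p = 0.0582).

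Outside the lists, 8 of 86 tested annotated genes were higher and 15 were lower (5.25% and 6.41% of all genes tested). The largest fall among annotated genes was that of *JMJ524* (*Solyc01g006680.4*), for a protein with the JmjC domain of histone demethylases. It had 2.08, 2.02 and 1.73 FPKM in re-watered leaves, against 56.00, 75.1 and 63.4 FPKM at day 0 (log2 fold change -4.47 ± 0.24 SE, adjusted p = 1.27e-09), the 8th largest fall of the 1280 genes called lower. Its mean was 22.4 FPKM on day 3 and 7.12 FPKM at day 5, and re-watered leaves were below day 5 as well (log2 fold change -1.41, adjusted p = 6.84e-05). The inducible plastid-lipid associated protein gene (*Solyc07g064600.3*) had 6.88, 6.13 and 6.69 FPKM in re-watered leaves, against 64.2, 26.1 and 94.5 FPKM at day 0 (log2 fold change -2.87 ± 0.58 SE, adjusted p = 9.55e-04). The AAA-ATPase At3g50940-like gene (*Solyc03g033840.4*) had 7.55, 2.21 and 6.12 FPKM in re-watered leaves, against 54.98, 28.4 and 38.7 FPKM at day 0 (log2 fold change -2.79 ± 0.40 SE, adjusted p = 4.50e-05). Here the mean was between 1.43 and 3.51 FPKM from day 1 to day 5, and re-watered leaves were not called different from day 5. The gene for the calcium-binding protein CML30 (*Solyc03g115930.3*), of the calmodulin-like family, had 6.69, 1.32 and 6.61 FPKM in re-watered leaves, against 54.96, 24.3 and 29.4 FPKM at day 0 (log2 fold change -2.77 ± 0.58 SE, adjusted p = 0.00126). The U-box protein 43 gene (*Solyc03g082690.3*), annotated as a protein with a ubiquitin ligase domain, had 15.6, 6.17 and 12.97 FPKM in re-watered leaves, against 63.5, 40.6 and 56.8 FPKM at day 0 (log2 fold change -2.18 ± 0.30 SE, adjusted p = 3.10e-05). In all these genes the re-watered libraries lay wholly below day 0.

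The largest rise among annotated genes was that of the BTB/POZ gene *DOT3* (*Solyc05g051580.3*), with 10.6, 12.9 and 10.6 FPKM in re-watered leaves, against 0.486, 0.301 and 0.2103 FPKM at day 0 (log2 fold change 3.21 ± 0.20 SE, adjusted p = 4.71e-09). Next was the gene for the chloroplast delta-7 desaturase (*Solyc03g116730.4*), which puts a double bond into the fatty acids of monogalactosyldiacylglycerol, the main lipid of thylakoid membranes. It had 61.1, 139 and 96.6 FPKM in re-watered leaves, against 10.3, 9.64 and 8.87 FPKM at day 0 (log2 fold change 3.16 ± 0.29 SE, adjusted p = 3.12e-07). All re-watered libraries were more than 5 times as high as any day 0 library, and the gene was at 1.34 FPKM at day 5. The cinnamate glucosyltransferase-like gene (*Solyc12g096870.1*) had 6.78, 6.43 and 6.098 FPKM in re-watered leaves, against 0.919, 1.74 and 1.76 FPKM at day 0 (log2 fold change 1.61 ± 0.29 SE, adjusted p = 3.67e-04). The *MYB48*-like gene (*Solyc06g005330.3*) had 11.02, 5.93 and 4.21 FPKM in re-watered leaves, against 0.954, 2.47 and 1.49 FPKM at day 0 (log2 fold change 1.56 ± 0.55 SE, adjusted p = 0.0346). This call was lost in 6 of 11 alternatives, among them without the first day 0 library (adjusted p = 0.115), without the third (adjusted p = 0.0776), without re-watered replicate 1 (adjusted p = 0.137) and without re-watered replicate 2 (adjusted p = 0.0629). The *DA1-related 1* gene (*Solyc02g089930.4*) had 51.3, 33.2 and 41.2 FPKM in re-watered leaves, against 18.8, 15.9 and 19.6 FPKM at day 0 (log2 fold change 1.15 ± 0.17 SE, adjusted p = 4.33e-05), and 0.997 without re-watered replicate 1, just under the minimum.

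The largest changes of all fell on genes without a name here. *Solyc05g045670.4* had 214, 141 and 98.9 FPKM in re-watered leaves, against 0.961, 0.721 and 0.924 FPKM at day 0 (log2 fold change 6.28 ± 0.87 SE, adjusted p = 2.91e-05). *Solyc01g080870.3* had 119, 154 and 134 FPKM in re-watered leaves, against 1.42, 1.69 and 1.73 FPKM at day 0 (log2 fold change 5.70 ± 0.25 SE, adjusted p = 1.03e-10). Both were also high at day 5, with means of 186 and 210.2 FPKM, and re-watered leaves were not called different from day 5. Among the falls, *Solyc12g013620.2* had 6.85, 1.601 and 4.52 FPKM in re-watered leaves, against 191, 191 and 153 FPKM at day 0 (log2 fold change -5.21 ± 0.41 SE, adjusted p = 7.35e-08), with 249 FPKM at day 5. *Solyc04g006950.4* was listed at 0 in all 3 re-watered libraries, against 40.2, 26.7 and 96.2 FPKM at day 0, and averaged 1.35 FPKM at day 5. A listed 0 may be a failed estimate, since 3 genes were listed at 0 in 1 of the 6 libraries and above 10 FPKM in the other 5. By the chromosome in the gene ID, the share of genes called lower ranged from 4.95% to 7.13% on chromosomes 1 to 12. It was 17.0% (28 of 165) on chromosome 00, which holds unplaced sequence. The share called higher ranged from 3.64% on chromosome 00 to 6.11% on chromosome 5.

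Heat recovery against heat 0 h was taken from other plants and another table, each normalized on its own, and no test was run between them. As deposited, 233 genes were higher (1.23%) and 4416 lower (23.3%) in heat recovery, and with median-ratio scaling 1127 were higher and 1455 lower. The median of all genes was -0.53 on the log2 scale as deposited and -0.02 scaled. With scaled values in both tables, 18423 genes were kept in both, and 268 of the 1332 genes lower in re-watered leaves were also lower in heat recovery, which is 20.1% of the first list and 18.6% of the second, while 77 were higher (5.78% and 6.90%). Of all 18423 genes 7.81% were lower and 6.06% higher in heat recovery. Among the 902 genes higher in re-watered leaves, 136 were higher in heat recovery (15.1% of that list and 12.2% of the heat list) and 134 were lower (14.9% and 9.32%). Across genes the correlation of the changes was 0.14.

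In heat recovery 12 of 23 antenna genes were called lower as deposited and 9 with scaled values, with a median log2 change of -1.30 and -0.63. Of all genes, 23.3% were lower in heat recovery as deposited and 7.81% scaled, with medians of -0.53 and -0.02. In re-watered leaves 2 antenna genes were called lower in both forms of the values, and their median was -0.26 as deposited and -0.32 scaled. The difference between the tables was not tested. For *NCED3* (*Solyc07g056570.1*) heat recovery leaves averaged 1.51 FPKM and heat 0 h leaves 13.6 FPKM, a log2 change of -2.49 as deposited that was called in limma (adjusted p = 0.0179) and of -1.97 with scaled values that was not (adjusted p = 0.0832). Of the 43 genes named with all library values, 11 had every library higher after re-watering and lower in heat recovery, and 3 the reverse. Of all 18423 genes, 14.8% and 1.04% had these patterns, and with scaled values 8 and 5 of the named genes had them, against 6.35% and 5.24% of all genes. As deposited, 18 of the 43 lay wholly above day 0 and 23 wholly below. Among all genes wholly above day 0, 50.6% lay wholly below in heat recovery. Among all genes wholly below day 0, 4.76% lay wholly above in heat recovery. With scaled values these shares were 23.9% and 20.3%. The starting levels of the 2 series were not alike. *JMJ524* (*Solyc01g006680.4*) averaged 64.8 FPKM at drought day 0 and 0.919 FPKM at heat 0 h, and *APRR5* (*Solyc03g081240.3*) averaged 61.6 FPKM at drought day 0 and 0.841 FPKM at heat 0 h.

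**Figure D5:**
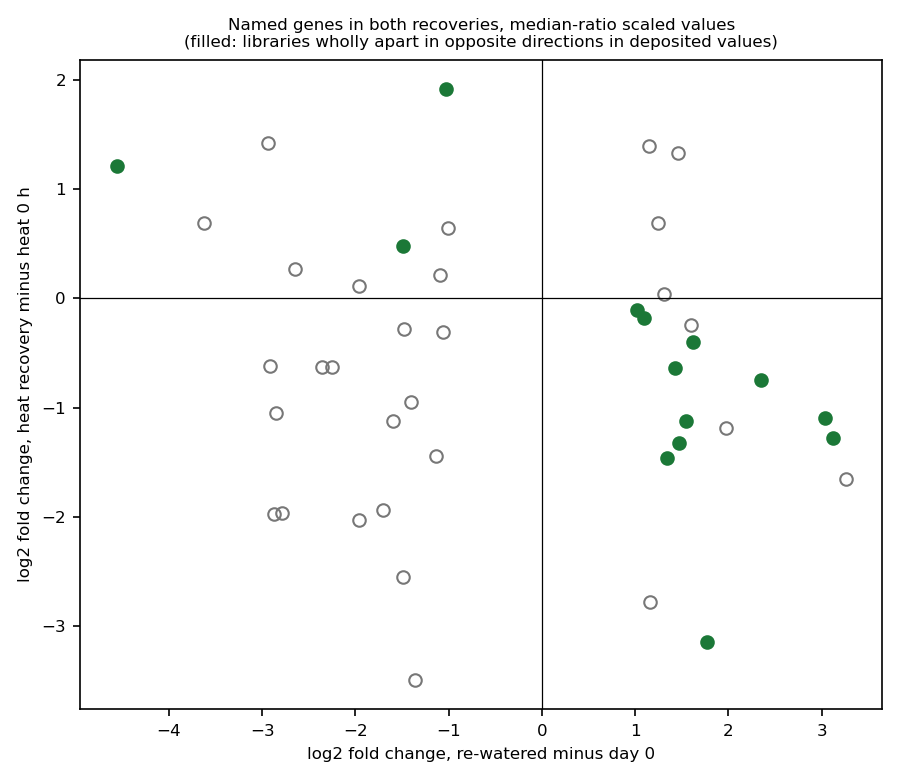
Log2 fold change of the named genes in re-watered leaves relative to day 0 (horizontal) and in heat recovery relative to heat 0 h (vertical), both with median-ratio scaling. Filled points are the 14 genes whose libraries lay wholly apart in opposite directions in the deposited values; 11 of them were higher after re-watering and lie at lower right, and 3 were lower and lie at upper left.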

How the data were processed

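Leaf RNA of tomato M82 was sequenced in 21 drought and 18 heat libraries, with 3 libraries per group. The authors deposited FPKM per gene and library in a table for each series. Trimmomatic, TopHat and Cuffdiff are listed in the submitters' processing notes, and how they were set for the drought libraries is not given in the sources at hand. For the heat series the paper states that a single alignment was kept for each read, so values of near-identical genes are uncertain. No fragment counts were given, so depth was read only as the most frequent ratio between libraries over genes below 0.5 FPKM.

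Genes were kept if 3 or more libraries of a table reached 1 FPKM. Group means of log2(FPKM + 1) were fitted for all 7 drought groups together in limma 3.58.1 (R 4.3.3, moderated variances that follow a trend with level) and p-values adjusted by the Benjamini-Hochberg method over all genes kept. The fit was tested on simulated data with the same spread in all groups of a gene. How it behaves where the groups differ in spread was not tested. The 3 day 0 columns were assigned to their group by name only. The members and lists were chosen with earlier results of these data known. Genes were named by rule: list members called as deposited or with median-ratio scaling (at most 4 per direction and list), genes given with an ID in the paper's text, at most 5 other annotated genes per direction, and 2 unnamed genes per direction with libraries that did not overlap. No gene ID matched the reference table used here, so other names, coordinates and sequences are not given.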

Additional observations from a re-analysis of the deposited data

Results flagged for a closer look

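Of the 43 genes named with all library values, 14 lay in opposite directions after the 2 treatments, with every re-watered library on one side of every day 0 library and every heat recovery library on the other side of every heat 0 h library. The 43 genes had been chosen mostly as called after re-watering. Of all 18423 genes kept in both tables, 15.8% showed such opposite directions as deposited and 11.6% with scaled values. The closer background is genes already wholly apart from day 0. Of those wholly above day 0, 50.6% lay wholly below in heat recovery as deposited and 23.9% scaled. Of those wholly below, 4.76% and 20.3% lay wholly above. The deposited heat values as a whole are shifted down (median -0.53). The difference itself was not tested, because the tables were normalized separately. With median-ratio scaling, 11 of the 14 kept this pattern in every library, and the xanthoxin dehydrogenase, *DA1-related 1* and *AVT1C* genes did not.

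Of the 14, 3 were lower after re-watering and higher in heat recovery. The log2 change was -4.47 after re-watering and 0.84 in heat recovery for *JMJ524*, -1.43 and 0.17 for *APRR5*, and -0.98 and 1.25 for *SOD2* (as deposited). *SOD2* averaged 312 FPKM in heat recovery and 131 FPKM at heat 0 h. The other genes were near 1 FPKM in the heat series, where values are the least certain. *JMJ524* averaged 2.50 FPKM in heat recovery and 0.919 FPKM at heat 0 h, and *APRR5* averaged 1.08 and 0.841 FPKM.

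The other 11 were higher after re-watering and lower in heat recovery. Auxin-responsive members were *SAUR50* (3.06 after re-watering and -1.68 in heat recovery) and the auxin-induced 15A-like gene (2.34 and -1.23). Lipid and wall members were the delta-7 desaturase gene (3.16 and -1.94) and the pectinesterase 53 gene (1.43 and -1.16). *SAUR50*, the 15A-like gene and the pectinesterase 53 gene did not reach the minimum level in the 15 drought libraries of the other groups. The DEA1 precursor gene had 1.82 and -3.77, and averaged 7.09 FPKM in heat recovery and 112 FPKM at heat 0 h. The JAR1-like gene had 1.39 and -2.09, peroxidase 47 had 1.51 and -1.93, the *MYB48*-like gene had 1.56 and -1.66, *AVT1C* had 1.65 and -0.97, *DA1-related 1* had 1.15 and -0.84, and xanthoxin dehydrogenase had 1.06 and -0.71.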

How the results depend on the processing

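For re-watered leaves against day 0, the counts stayed within 1.5 times with median-ratio scaling, with a pseudocount of 0.1, with low genes kept in, with these 2 groups fitted alone and with each library left out in turn. Leaving out 1 library gave 2172 to 2465 called genes, 933 to 1099 higher and 1090 to 1420 lower, and 2156 to 2501 with scaled values. Without a minimum fold change the counts were 7084 genes (4007 higher, 3077 lower) and 7302 with scaled values. Of the 41 named genes called, 27 were called under all 11 alternatives, and no named gene changed direction. The calls that were lost in most alternatives were those of *LHCb1* (8), *LHCb2* (7), the pectinesterase gene *Solyc02g080200.4* (6) and the *MYB48*-like gene (6). In an alternative chosen after the data were seen, genes were kept by their level in the 15 libraries of the other groups alone, and 2118 genes were called, 930 higher and 1188 lower.

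Against day 5, no minimum fold change gave 12720 genes (5884 higher, 6836 lower), and leaving out 1 library gave 5647 to 6286, 3264 to 3679 higher and 2236 to 2776 lower. In heat recovery, median-ratio scaling gave 2582 genes, 1127 higher and 1455 lower, against 4649 as deposited. No minimum fold change gave 7230 genes (455 higher, 6775 lower). Leaving out 1 library gave 3344 to 5067 genes, 152 to 261 higher (152 without heat recovery replicate 2) and 3083 to 4855 lower. The cause was not tested.

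The numbers of the day 0 columns are not tied to the labels. Taken as they stand, also a choice made after the data were seen, they gave 2349 genes with the replicate block (1061 higher, 1288 lower, and the same calls for all 43 named genes), and deviations of libraries with the same number had correlations of 0.0059, 0.13 and 0.042. With the replicate block, 5982 genes were called against day 5 (5987 without it) and 4645 in heat recovery (4649 without it). Deviations of libraries with the same number had correlations of 0.19, -0.13 and -0.081 between re-watered and day 5 leaves and of -0.034, -0.00041 and -0.11 in the heat comparison. Libraries with different numbers had -0.21 to 0.26 and -0.037 to 0.073 in these comparisons, and -0.14 to 0.11 between re-watered and day 0 leaves. With 3 libraries per group these values cannot decide whether the numbers pair the libraries. FPKM hold no fragment counts, and values of genes near 1 FPKM are the least certain.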
